A study of Arabidopsis thaliana with 9 samples.

Results

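The plastid genome of Arabidopsis thaliana keeps, beside its photosynthesis genes, a set of genes for the plastid's own gene expression and for a few other tasks. They encode ribosomal proteins of the small (rps) and large (rpl) subunit, the core subunits of the plastid RNA polymerase (rpo), the intron maturase matK, the protease subunit clpP, the fatty acid synthesis subunit accD, and proteins that assemble photosystem I or serve electron transport (ycf3, ycf4, ccsA, cemA). RNA of 26 such genes was compared among 3 lines of seedlings on 9 arrays. These were all genes outside the photosynthesis families psa, psb, pet, atp, ndh and rbcL for which the annotation of the array gave a probe set to a single plastid gene. Each had 1 probe set, so that 26 of 22746 probe sets were followed. RefSeq (TAIR10.1) lists 34 plastid protein genes of these roles. Of the others, 6 had probe sets that match more than 1 locus.

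The chloroplast is built jointly by the plastid and nuclear genomes. Plastid genes are read by 2 kinds of RNA polymerase, one with the plastid-encoded rpo core, which depends on nuclear sigma factors, and a phage-type enzyme encoded in the nucleus. The rpoB, rpoC1, rpoC2 and accD genes are known as genes read mainly by the nuclear-encoded enzyme, and the photosynthesis genes mainly by the plastid-encoded one. Many plastid genes lie in shared transcription units. Phytochromes, the red and far-red photoreceptors, promote greening, and in far-red light phytochrome A is the one that acts.

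All samples were 7-day-old whole seedlings. The seeds received 5 min of red light at 75 μmol per square metre and second and 3 days of cold in darkness, and the seedlings then stood in continuous far-red light until harvest. No-0 WT carried no transgene. 35S::pBVR3 carried a plastid-targeted biliverdin reductase, an enzyme that breaks down the precursor of the phytochrome chromophore, under the viral 35S promoter, and is the line with constitutive phytochrome deficiency. CAB3::pBVR2 carried the same enzyme under the promoter of a chlorophyll a/b-binding protein gene, which restricts the deficiency to mesophyll. Each transgenic genotype was represented by 1 line and each line by 3 arrays of independent RNA extractions. No probe set for the transgene was identified, so that the labels could not be checked on it. The nuclear marker genes listed for green tissue, epidermis, phloem, guard cells and root had no named probe set.

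Values are given as array signals on a linear scale after the arrays were shifted to a common 75th percentile, in the order of replicates 1, 2 and 3, and differences as log2 differences of mean log2 signals. Signals of different probe sets cannot be set against each other. The p-values are from limma, fitted to all arrays, with Benjamini-Hochberg adjustment over the 15436 probe sets that passed a filter on low signal, and a gene passed the test at an adjusted p of 0.05 or less. The filter kept 25 of the 26 genes. The exception was rps14, a small-subunit protein gene, whose signal was 71.2, 76.9 and 52.2 in No-0 WT, 68.6, 36.4 and 49.8 in 35S::pBVR3, and 29.9, 34.4 and 41.1 in CAB3::pBVR2. On CAB3::pBVR2 replicate 1 rps14 and rpoB were not above background, the highest bacterial control probe set of the array, while the other 24 genes were above it on all 9 arrays. In whole seedlings, fewer cells with developed plastids and less plastid RNA per cell cannot be told apart.

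Array medians of the deposited signals ran from 139.4 to 184.3. No-0 WT replicate 1 stood apart for these genes: it was the lowest No-0 WT array for 22 of 26 genes, and No-0 WT replicate 2 was the highest for 25 of 26. Relative to each gene's mean over the 9 arrays, the median of the 25 genes was at −0.20, 1.03 and 0.61 on the log2 scale in No-0 WT, at 0.23, 0.03 and 0.03 in 35S::pBVR3, and at −0.66, −0.53 and −0.46 in CAB3::pBVR2. The 3 CAB3::pBVR2 arrays thus lay below all others, and No-0 WT replicate 1 lay below the 35S::pBVR3 arrays and above the CAB3::pBVR2 arrays. The median SD among arrays of a line was 0.66 in No-0 WT against 0.23 in 35S::pBVR3 and 0.21 in CAB3::pBVR2, whereas over all probe sets kept it was 0.22, 0.24 and 0.25. The 25S rRNA control probe set also varied among arrays, with 1705, 1302 and 8413 in No-0 WT, 6649, 560 and 614 in 35S::pBVR3, and 724, 227 and 324 in CAB3::pBVR2. The ratio of 3′ to 5′ control probe sets, a sign of RNA quality, was 1.33 to 1.42 in No-0 WT, 1.36 to 1.75 in 35S::pBVR3 and 1.47 to 2.06 in CAB3::pBVR2 for GAPDH, and 0.267 to 0.382, 0.401 to 0.515 and 0.412 to 0.485 for actin. With these probe sets CAB3::pBVR2 was above No-0 WT without overlap for both genes, while for ubiquitin it was below, at 2.06 to 2.27 against 2.54 to 2.97. The array holds another pair of 3′ and 5′ probe sets for each of these genes. The ratios of those other pairs overlapped between CAB3::pBVR2 and No-0 WT, so that the separation depended on the probe sets used. The part of RNA quality in the values below was not tested. Like rRNA, plastid transcripts carry no long poly(A) tail, and the part of RNA capture in the values below was not tested.

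**Figure D1:**
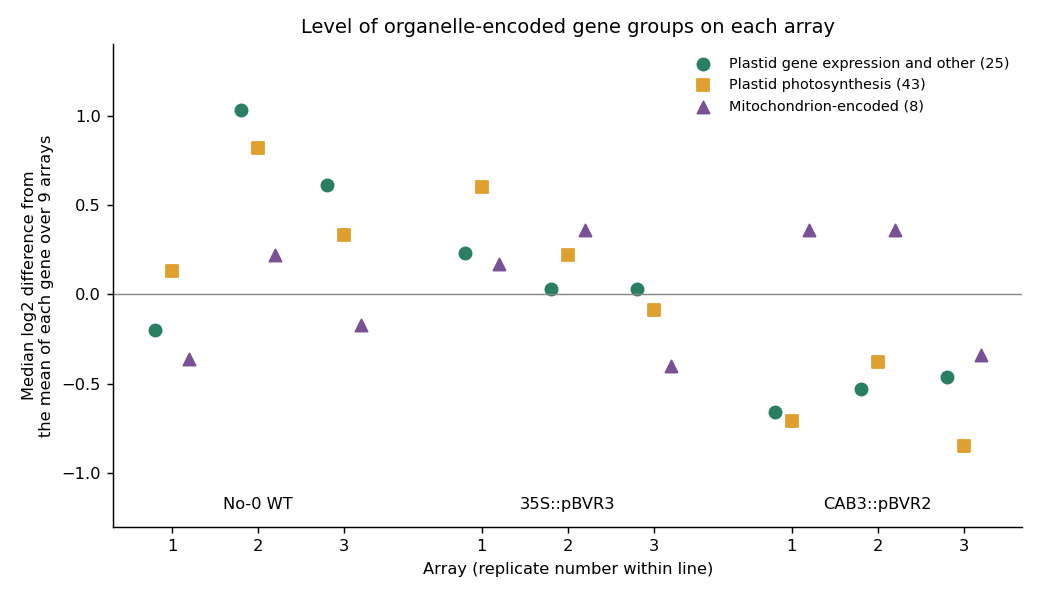
Median log2 difference of each gene from its own mean over the 9 arrays (y axis), by array (x axis), for the 25 plastid genes of gene expression and other roles, 43 plastid photosynthesis genes and 8 mitochondrion-encoded genes kept by the filter. The CAB3::pBVR2 arrays are below 0 for both plastid groups (−0.66 to −0.46 for the gene expression group), the No-0 WT arrays are spread from −0.20 to 1.03, and the mitochondrial genes show no such order.

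The first question was whether the genes differed between CAB3::pBVR2 and 35S::pBVR3, the comparison around which the study was built. They were lower in CAB3::pBVR2. Of 25 genes, 6 fell and 0 rose, against 6.69% of all probe sets that fell and 1.74% that rose. The genes that fell were ccsA, cemA, rps4, rps18, rpl33 and matK, at 1.75- to 2.39-fold lower signal. At unadjusted p under 0.05 the count was 10 lower and 0 higher (14.0% and 8.93% of all probe sets). The log2 difference was below 0 for 25 of 25 genes, with a median of −0.65 and a range of −1.26 to −0.21, where the median over all probe sets was 0.03. The arrays of both lines did not overlap for 18 of 25 genes, all lower in CAB3::pBVR2, against 15.9% of all probe sets. The count of genes that fell depended on single arrays: it was 0 without 35S::pBVR3 replicate 1 (9 at unadjusted p), 1 without 35S::pBVR3 replicate 2, CAB3::pBVR2 replicate 1 or CAB3::pBVR2 replicate 3, and 3 without No-0 WT replicate 3. The shares of all probe sets that fell were then 4.28% without 35S::pBVR3 replicate 1, 4.76% to 4.83% in the fits with 1 gene and 6.05% without No-0 WT replicate 3, so that the members with 0 or 1 gene of 25 were at or below the share of all probe sets. The difference was below 0 for every gene tested in each of these and under both other scalings.

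Small-subunit genes fell in 2 of 7 cases, and their median log2 difference was −0.58. For this and the role groups below, the share of all probe sets that fell was 6.69%. The signal of rps4, whose product starts assembly of the small subunit in Escherichia coli, was 15387, 22746 and 20247 in No-0 WT, 16302, 15225 and 12239 in 35S::pBVR3, and 7660, 8426 and 7384 in CAB3::pBVR2. Every CAB3::pBVR2 array was below every other array, while the other lines overlapped. The difference of −0.89 ± 0.19 (SE, n = 3 per line) between the pBVR lines passed the test (adjusted p = 0.0193), as it did under 10 of 16 other settings. For rps18 the arrays read 3356, 3585 and 3525 in No-0 WT, 3263, 2390 and 2174 in 35S::pBVR3, and 1608, 1654 and 1110 in CAB3::pBVR2. The 3 lines did not overlap at all, in the order No-0 WT, 35S::pBVR3, CAB3::pBVR2. The difference between the pBVR lines was −0.84 ± 0.21 (SE), with an adjusted p of 0.0393. It passed under 5 of 16 other settings and in none of the fits that left out 1 array (adjusted p up to 0.115).

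Another small-subunit gene, rps16, carries an intron and had low signals of 105, 190 and 170 in No-0 WT, 91.4, 107 and 72.1 in 35S::pBVR3, and 63.9, 57.2 and 57.5 in CAB3::pBVR2. CAB3::pBVR2 was lowest without overlap, and No-0 WT replicate 1 lay within the range of 35S::pBVR3. The difference between the pBVR lines, −0.58 ± 0.24 (SE), did not pass (adjusted p = 0.188), and the F-test across the lines did (adjusted p = 0.00811). The least negative gene of the group was rps15, at 380, 1474 and 602 in No-0 WT, 569, 543 and 549 in 35S::pBVR3, and 457, 507 and 467 in CAB3::pBVR2. The pBVR lines were tight and did not overlap, and No-0 WT spread over both, with replicate 1 below every other array. The difference was −0.22 ± 0.40 (SE, adjusted p = 0.799). The remaining rps2, rps3 and rps19 were at −0.80, −0.44 and −0.57, and none of them passed.

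Of 7 large-subunit genes 1 fell, and the median was −0.64. The signal of rpl33 was 11773, 17569 and 16257 in No-0 WT, 12698, 10894 and 9819 in 35S::pBVR3, and 5657, 6840 and 5943 in CAB3::pBVR2. The CAB3::pBVR2 arrays lay below all others. The difference between the pBVR lines was −0.85 ± 0.19 (SE, adjusted p = 0.0257) and passed under 10 of 16 other settings. In tobacco the rpl33 protein is dispensable except in the cold. It shares a transcription unit with rps18, and the 2 genes differed between the pBVR lines by nearly the same amount. The least negative was rpl32, with 5064, 6941 and 6655 in No-0 WT, 7757, 5619 and 5353 in 35S::pBVR3, and 5260, 4802 and 4621 in CAB3::pBVR2. On the linear scale it is the 1 gene of 26 whose mean did not follow the order No-0 WT above 35S::pBVR3 above CAB3::pBVR2. On mean log2 signals the gene above No-0 WT in 35S::pBVR3 was accD (0.06). For rpl32 the difference of −0.33 ± 0.19 (SE) between the pBVR lines did not pass (adjusted p = 0.349). The other 5 genes, rpl14, rpl16, rpl20, rpl22 and rpl36, lay between −0.75 and −0.47 with standard errors of 0.39 to 0.57.

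**Figure D2:**
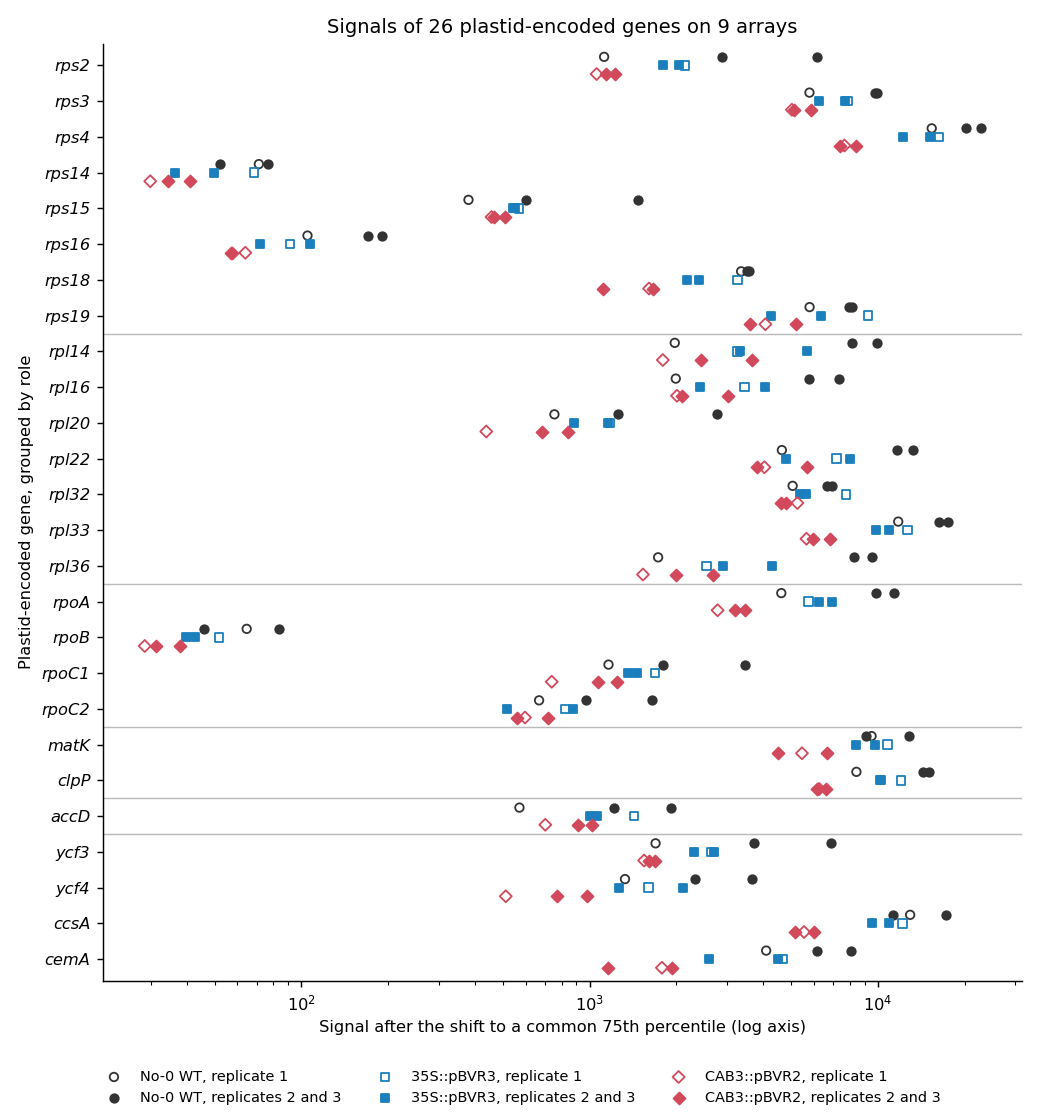
Signal of each of the 26 plastid genes (rows, grouped by role) on each array (x axis, log scale, after the shift to a common 75th percentile), with replicate 1 of each line as an open symbol. CAB3::pBVR2 (diamonds) is to the left of 35S::pBVR3 (squares) without overlap for 18 of the 25 genes kept, and No-0 WT replicate 1 (open circles) is the lowest No-0 WT array for 22 of 26.

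None of the 4 RNA polymerase genes passed the test between the pBVR lines (median −0.52), with 1 lower at unadjusted p under 0.05 (14.0% of all probe sets). The rpoA gene encodes the alpha subunit and lies at the end of a long cluster of ribosomal protein genes. The signal of rpoA was 4626, 11375 and 9843 in No-0 WT, 5754, 6237 and 6920 in 35S::pBVR3, and 2781, 3208 and 3475 in CAB3::pBVR2. CAB3::pBVR2 was below both other lines without overlap. The difference between the pBVR lines was −1.0 ± 0.30 (SE, adjusted p = 0.0784). It passed under 3 of 16 other settings, with the replicate number as a block among them (adjusted p = 0.0351). The rpoB gene, for the beta subunit, read 64.6, 83.3 and 45.8 in No-0 WT, 51.8, 39.9 and 42.6 in 35S::pBVR3, and 28.6, 31.2 and 37.8 in CAB3::pBVR2, close to the background of 27.0 to 48.0. The pBVR lines did not overlap, and the difference was −0.46 ± 0.23 (SE, adjusted p = 0.28). The least negative was rpoC2, the second part of the beta prime subunit, at 668, 1651 and 969 in No-0 WT, 820, 873 and 516 in 35S::pBVR3, and 597, 715 and 558 in CAB3::pBVR2. All lines overlapped, and the difference was −0.21 ± 0.33 (SE, adjusted p = 0.756). The rpoC1 gene lay between, at −0.59 ± 0.36 (SE).

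Of the 2 genes for RNA processing and protein turnover, 1 passed between the pBVR lines. The signal of matK, the maturase for several plastid introns, was 9513, 12856 and 9121 in No-0 WT, 10797, 9745 and 8387 in 35S::pBVR3, and 5456, 6671 and 4488 in CAB3::pBVR2. No-0 WT and 35S::pBVR3 overlapped, and CAB3::pBVR2 lay below both. Between the pBVR lines matK fell, at −0.81 ± 0.21 (SE, adjusted p = 0.0418), but it passed under only 5 of 16 other settings, with an adjusted p of 0.0504 without the shift and 0.0993 after quantile normalization. For clpP, a proteolytic subunit of the Clp protease, the arrays read 8429, 15074 and 14330 in No-0 WT, 12021, 10150 and 10250 in 35S::pBVR3, and 6261, 6587 and 6174 in CAB3::pBVR2. Here too CAB3::pBVR2 was lowest without overlap. The difference of −0.77 ± 0.22 (SE) had an adjusted p of 0.0675 and passed under 2 of 16 other settings.

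The accD gene encodes the beta subunit of the carboxyltransferase of acetyl-CoA carboxylase, which starts fatty acid synthesis. Its signal was 571, 1916 and 1218 in No-0 WT, 1425, 1005 and 1059 in 35S::pBVR3, and 702, 1017 and 911 in CAB3::pBVR2. All 3 lines overlapped, and the lowest value was No-0 WT replicate 1. The pBVR lines differed by −0.41 ± 0.39 (SE, adjusted p = 0.585), which did not pass.

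The 4 genes for photosystem assembly and electron transport had the most negative median of the role groups, −1.06, and 2 of them fell. The signal of ccsA, which is needed for attaching heme to c-type cytochromes, was 12950, 17201 and 11264 in No-0 WT, 12184, 10903 and 9517 in 35S::pBVR3, and 5548, 6008 and 5176 in CAB3::pBVR2. The CAB3::pBVR2 arrays lay below all others, which overlapped. The difference between the pBVR lines, −0.96 ± 0.19 (SE), had an adjusted p of 0.0142, and it passed under 15 of 16 other settings. The exception was the fit without 35S::pBVR3 replicate 1, at an adjusted p of 0.056. The signal of cemA, which encodes an envelope membrane protein, was 4099, 8055 and 6159 in No-0 WT, 4690, 4495 and 2586 in 35S::pBVR3, and 1782, 1932 and 1161 in CAB3::pBVR2. The 35S::pBVR3 arrays overlapped No-0 WT and not CAB3::pBVR2. The difference of −1.26 ± 0.32 (SE), 2.39-fold, was the most negative of the 25 genes (adjusted p = 0.0458). It passed under 7 of 16 other settings, and its adjusted p was 0.134 without 35S::pBVR3 replicate 1.

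The ycf3 and ycf4 genes encode factors of photosystem I assembly. For ycf4 the signal was 1327, 3656 and 2320 in No-0 WT, 1602, 2112 and 1267 in 35S::pBVR3, and 512, 980 and 771 in CAB3::pBVR2. CAB3::pBVR2 was below both other lines without overlap. The difference of −1.16 ± 0.38 (SE) between the pBVR lines did not pass (adjusted p = 0.101), and of 16 other settings it did under 1, the replicate number as a block (adjusted p = 0.0223). For ycf3 the arrays read 1694, 6867 and 3729 in No-0 WT, 2643, 2312 and 2699 in 35S::pBVR3, and 1546, 1686 and 1603 in CAB3::pBVR2. The pBVR lines were tight and apart, and No-0 WT replicate 1 was just above CAB3::pBVR2. The difference was −0.66 ± 0.41 (SE, adjusted p = 0.38).

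**Figure D3:**
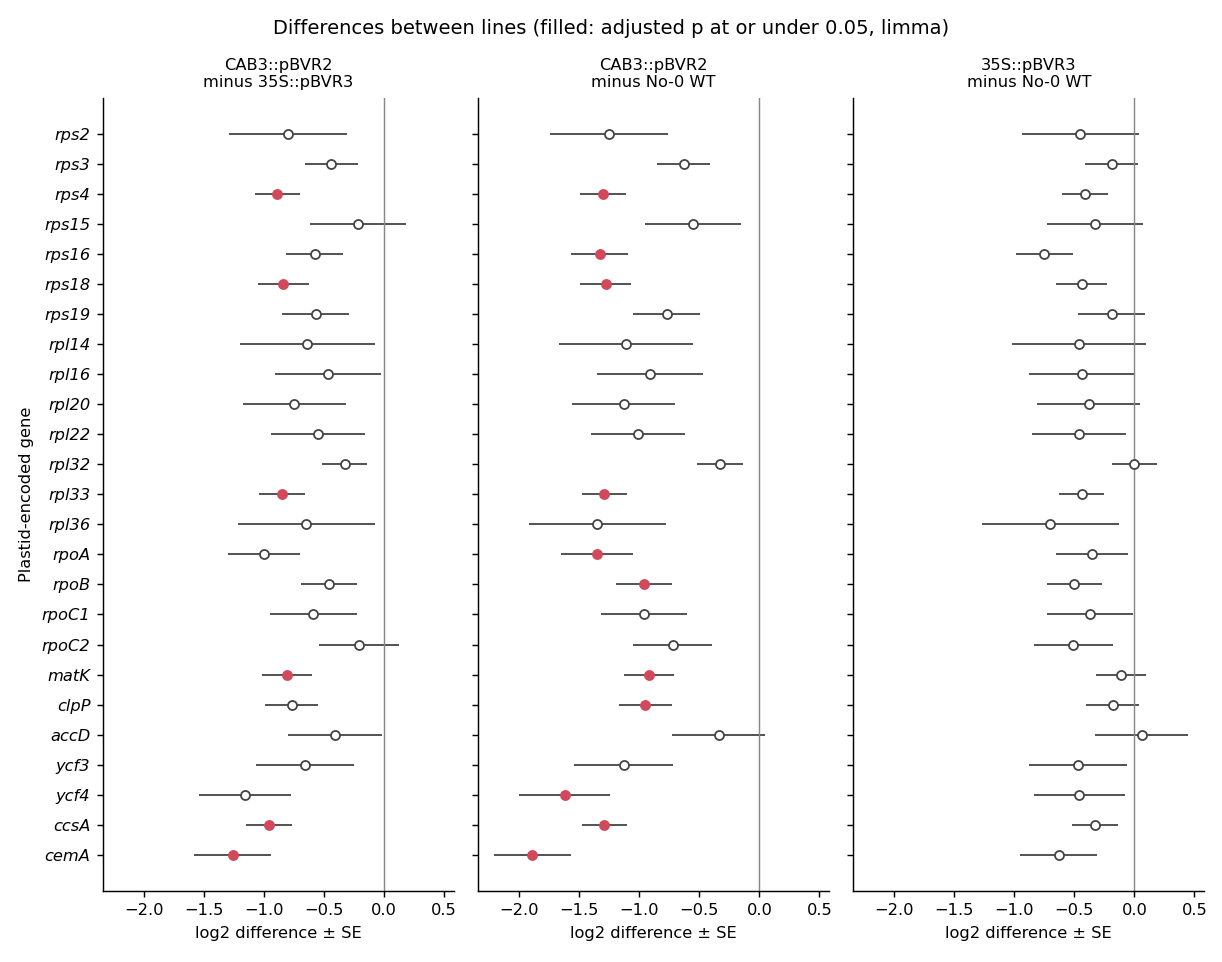
log2 difference ± SE (x axis, n = 3 arrays per line) of the 25 plastid genes kept by the filter (rows) in the 3 comparisons of lines, with filled symbols for adjusted p at or under 0.05 in limma. Filled symbols number 6 for CAB3::pBVR2 against 35S::pBVR3, 11 for CAB3::pBVR2 against No-0 WT and 0 for 35S::pBVR3 against No-0 WT.

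The second question was how each line stood against No-0 WT. CAB3::pBVR2 was lower, with 11 of 25 genes that fell and 0 that rose, against 20.2% of all probe sets that fell and 16.7% that rose. These were the 6 genes above and clpP, rpoA, rpoB, rps16 and ycf4. The median log2 difference was −1.11, from −1.89 for cemA to −0.33 for rpl32, and was below 0 for 25 of 25 genes, or 24 of 25 after quantile normalization. The most negative called differences after cemA (adjusted p = 0.00193) were ycf4 at −1.62 ± 0.38 (SE, adjusted p = 0.00921), rpoA at −1.35 ± 0.30 (adjusted p = 0.00727) and rps16 at −1.33 ± 0.24 (adjusted p = 0.00251). The lines did not overlap for 13 of 25 genes (25.8% of all probe sets lower without overlap). The count rested on No-0 WT replicate 1: without it, 23 of 25 genes fell, against 18.0% of all probe sets, and the exceptions were rpl32 and rps19. With the replicate number as a block 16 of 25 fell, against 22.8% of all probe sets, the 5 added being rps3, rpl22, rpl36, rpoC1 and ycf3, at adjusted p of 0.0318 to 0.0479.

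No gene passed the test between 35S::pBVR3 and No-0 WT, against 5.29% of all probe sets that fell and 4.25% that rose in limma. At unadjusted p under 0.05, 2 were lower (rps16 and rpl33) and 0 higher (15.1% and 11.9% of all probe sets). The median log2 difference was −0.44, with a range of −0.75 for rps16 (SE 0.24, adjusted p = 0.0832) to 0.06 for accD. The median was −0.75 without No-0 WT replicate 1 and −0.09 without No-0 WT replicate 2. The difference was below 0 for 24 of 25 genes, for 20 of 25 after quantile normalization and for 16 of 24 without No-0 WT replicate 2. Only rps18 had arrays that did not overlap, in the lower direction, against 19.1% of all probe sets lower and 14.1% higher without overlap. Without No-0 WT replicate 1, rps16 and rpl36 fell (adjusted p = 0.0402 and 0.0377). The values of accD changed sign, to −0.41 without No-0 WT replicate 1 and −0.09 without 35S::pBVR3 replicate 1. The 3 comparisons share arrays. The mean of the linear signals was in the order No-0 WT, 35S::pBVR3, CAB3::pBVR2 for 25 of 26 genes. For 20 of 25 genes the log2 difference was more negative from 35S::pBVR3 to CAB3::pBVR2 than from No-0 WT to 35S::pBVR3. That count was not tested and rested on No-0 WT replicate 1, without which it was 11 of 25.

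Across the 3 lines together, 11 of 25 genes passed the F-test, against 29.2% of all probe sets, and they were the same 11 genes that fell in CAB3::pBVR2 against No-0 WT. With a 2-fold difference between the pBVR lines required in addition, cemA, ycf4 and rpoA were left. The F-test count was 19 without No-0 WT replicate 1.

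Genes of 1 transcription unit did not all have the same value, and no differences between genes or units were tested. In the unit that starts with accD, the log2 difference between the pBVR lines was −0.41 for accD, −1.16 for ycf4 and −1.26 for cemA, and the photosynthesis genes of the same unit were at −1.11 for psaI and −1.0 for petA, both of which fell. The cluster that runs from rpl23 to rpoA had 7 measured genes, none of which passed, with a median of −0.57 and rpoA as its most negative member. It was also the unit in which No-0 WT replicate 1 stood furthest from the others, with a median of −0.46 from the gene means against 1.07 and 0.86 on replicates 2 and 3. In the unit of rpoB, rpoC1, rpoC2 and rps2 the differences ran from −0.21 for rpoC2 to −0.80 for rps2, and none passed. The 4 genes read mainly by the nuclear-encoded polymerase had a median of −0.43 and 0 calls, and the other 21 genes −0.75 and 6 calls, a difference that was not tested.

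**Figure D4:**
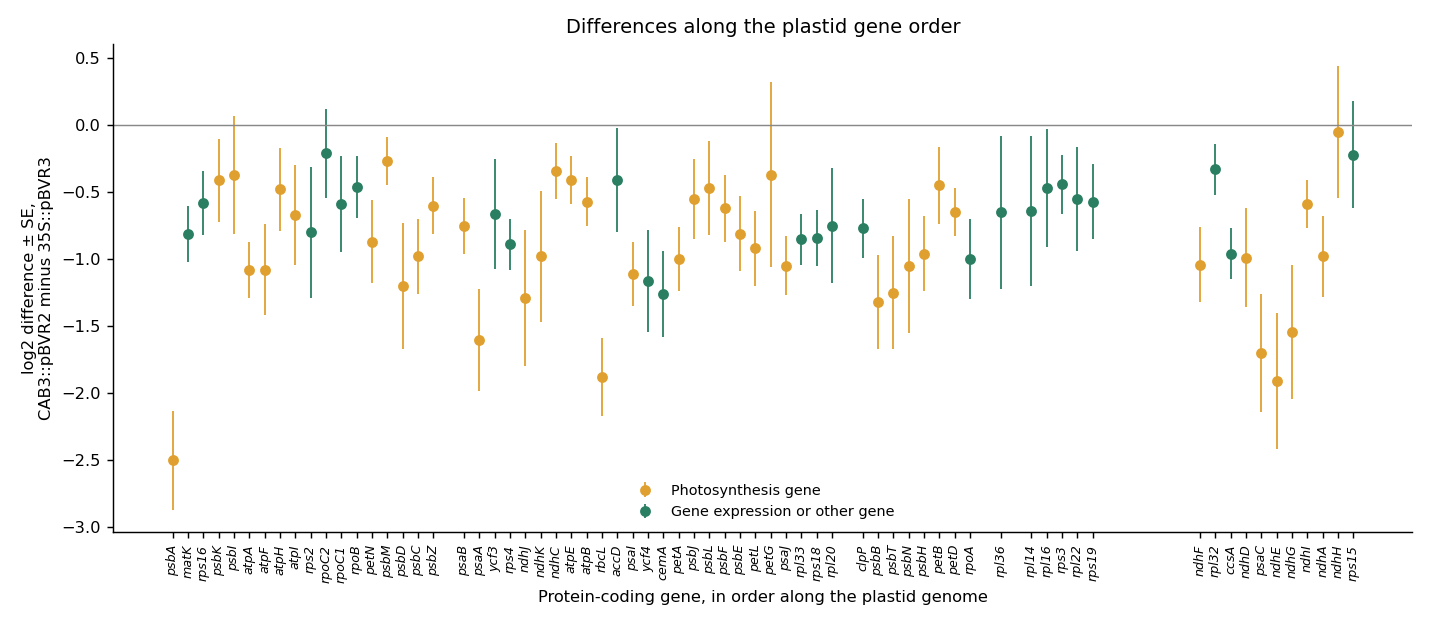
log2 difference ± SE between CAB3::pBVR2 and 35S::pBVR3 (y axis, n = 3 arrays per line) of plastid genes in their order along the plastid genome (x axis, spaced by gene rank, with gaps where no gene was plotted), for the 25 genes of gene expression and other roles and 43 photosynthesis genes. All lie below 0, from −2.50 for psbA to −0.05 for ndhH, and the neighbours psaI, ycf4, cemA and petA lie between −1.26 and −1.0.

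The 43 photosynthesis genes of the plastid were measured on the same arrays. Of these 9 fell and 0 rose between the pBVR lines, against 6.69% and 1.74% of all probe sets. Their median was −0.96 and their range −2.50 to −0.05. The genes psbA and rbcL, for the D1 protein of photosystem II and the large subunit of Rubisco, were at −2.50 and −1.88. No gene of the expression group was as far below 0 as either. Against No-0 WT, 28 of 43 fell in CAB3::pBVR2 (20.2% of all probe sets). In 35S::pBVR3 0 of 43 fell (5.29% of all probe sets), with 3 at unadjusted p (15.1%). Whether the 2 groups differ was not tested. Of 8 mitochondrion-encoded genes kept, 0 passed in any comparison in limma. Between the pBVR lines 0 did at unadjusted p, against 14.0% of all probe sets lower and 8.93% higher. Their median between the pBVR lines was 0.02, with 3 genes below 0 and 5 above. The range was −0.48 for nad4 to 0.29 for nad6, and nad4 and cox1 (−0.35) lay within the range of the expression group. The 25S rRNA control differed by −1.81 between the pBVR lines (exact permutation p = 0.3, two-sided) and by −2.82 between CAB3::pBVR2 and No-0 WT (exact permutation p = 0.1, the smallest that 3 against 3 arrays allow).

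Nuclear genes for the same machinery could be followed in part. Of 35 listed nuclear genes for plastid ribosomal proteins 10 had a named probe set, and 10 of 10 fell in CAB3::pBVR2 against 35S::pBVR3, 10 of 10 against No-0 WT, and 8 of 10 in 35S::pBVR3 against No-0 WT. The shares of all probe sets that fell in these comparisons were 6.69%, 20.2% and 5.29%. The median difference between the pBVR lines was −1.04 for 3 small-subunit genes and −1.25 for 7 large-subunit genes, with the most negative at −1.42 ± 0.20 (SE) for AT1G29070 (adjusted p = 0.00318) and −1.35 ± 0.14 (SE) for AT4G01310 (adjusted p = 0.000779). Their standard errors, with a median of 0.15, were smaller than the median of 0.32 for the plastid genes. Of 8 listed nuclear genes of the Clp protease core 2 were named, and CLPP4 fell (−0.85 ± 0.16, SE, adjusted p = 0.0125), while AT1G09130 was at −0.64 ± 0.17 (SE, adjusted p = 0.0534). Of the nuclear-encoded phage-type polymerases 1 of 2 was named, AT5G15700, at signals near background and 0.38 ± 0.83 (SE, adjusted p = 0.836). Sigma factors, polymerase-associated proteins and the partners of accD had no named probe set and were not analysed here.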

How the data were processed

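The authors deposited linear probe set intensities of 9 Affymetrix ATH1 arrays, made with MAS5 and scaled so that the mean of an array after trimming of 2% is 500, as the values show. RNA had been amplified with the MessageAmp Premier kit, which primes on poly(A). Log2 values were shifted by each array's 75th percentile, following the methods. Probe sets were kept where at least 1 array reached its own 40th percentile, in place of the flag filter of the methods, for lack of detection calls here. limma 3.58.1 in R 4.3.3 was fitted to all 9 arrays (prior degrees of freedom 3.23). On simulated data with a 2-fold change between the pBVR lines it called 55 of 100 changed probe sets, and 93 of 100 with a 4-fold change, among 15436. The simulation used the spreads of all probe sets kept, whose median SE was 0.21 against 0.32 for the 25 genes. It therefore does not give the recovery for these genes. The number of arrays limits the precision. Background was the highest of 27 bacterial control probe sets. Deviations from the line means correlated at 0.207 to 0.391 in the 9 pairs of arrays that share a replicate number and at −0.263 to −0.051 in the other 18. The labels do not say what a number stands for. The main fit did not pair arrays by number, and the number was used only as a block among the alternatives. The members, gene lists and subsets were chosen with earlier results of these data known. Values of every array are given for genes that passed the pBVR contrast or the F-test and for the extremes and brightest member of each role group. The alternatives were other scalings, filters, a pseudocount, the replicate block, an unmoderated test and leaving out each array.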

Additional observations from a re-analysis of the deposited data

How the results depend on the processing

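Between the pBVR lines 6 genes fell, against 6.69% of all probe sets. The count was 3 after quantile normalization (6.72% of all probe sets) and 3 with the unmoderated test (5.64%). It was 4 without the shift (5.4%) and 8 with the replicate block (8.93%). Without the filter on signal, which tests 22746 probe sets, it was 1 of 26 (2.72%), and with a stricter filter 8 of 23 (10.6%). When 1 array was left out it was 0 to 6, at shares of 4.28% to 6.05%. The cause of these changes was not tested. Against No-0 WT the count for CAB3::pBVR2 (11) was 10 to 23 and that for 35S::pBVR3 (0) was 0 to 2 when 1 array was left out. The shares of all probe sets that fell were then 16.4% to 19.9% and 0.742% to 4.79%. The F-test count (11) was 7 after quantile normalization, 7 without the filter, 7 with the unmoderated test, and 7 to 19 when 1 array was left out. The median difference between CAB3::pBVR2 and No-0 WT was −0.73 after quantile normalization and −1.46 to −0.72 when 1 array was left out. The median between 35S::pBVR3 and No-0 WT (−0.44) was −0.75 to −0.09 when 1 array was left out. Between 35S::pBVR3 and No-0 WT, where none passed, 11 of 25 genes changed sign under at least 1 setting, and between CAB3::pBVR2 and No-0 WT 2 of 25 did (accD and rpl32). The difference of accD reversed when 1 array was left out: CAB3::pBVR2 against No-0 WT (−0.34) was −0.82 to 0.06, the latter without No-0 WT replicate 2, and 35S::pBVR3 against No-0 WT (0.06) was −0.41 to 0.46, and −0.09 without 35S::pBVR3 replicate 1. No gene changed sign between the pBVR lines in any setting. Without the shift the median of all probe sets moved from 0.02 to 0.17 between CAB3::pBVR2 and No-0 WT. Every gene had 1 probe set, so that averaging probe sets could not change a value. With the replicate block, no gene that had passed between the pBVR lines or in CAB3::pBVR2 against No-0 WT was lost. The signal of rpoB lies near background, which limits what it can show.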

Other observations

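Another 7 probe sets match 2 places in the repeated part of the plastid genome and stand for 6 genes of the same roles, so that they were not among the 26. Their log2 difference between CAB3::pBVR2 and 35S::pBVR3 was below 0 for each, and none passed the test in limma, against 6.69% of all probe sets that fell. For rpl23, a large-subunit protein, the signal was 7277, 11653 and 9910 in No-0 WT, 13258, 6373 and 8123 in 35S::pBVR3, and 5055, 3651 and 5472 in CAB3::pBVR2. CAB3::pBVR2 was lowest without overlap, and the difference of −0.92 ± 0.30 (SE) between the pBVR lines had an adjusted p of 0.0949. The rps7 gene, for a small-subunit protein, was at −0.54 ± 0.20 (SE, adjusted p = 0.145) and rpl2 at −0.45 ± 0.19 (adjusted p = 0.197). The 2 probe sets of rps12, a gene whose transcript is joined from separate pieces, were at −0.74 and −0.66. The large reading frames ycf2 and ycf1 were at −0.59 ± 0.34 (SE) and −0.23 ± 0.34 (SE). Against No-0 WT, ycf2 fell in CAB3::pBVR2 by 1.52 on the log2 scale (adjusted p = 0.00714), as did rpl23 (−1.02, adjusted p = 0.024), rpl2 (−0.72, adjusted p = 0.0163) and rps7 (−0.71, adjusted p = 0.0224). The probe sets of rps12 and ycf1 did not pass in this comparison, in which 20.2% of all probe sets fell.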
